A study of Homo sapiens with 6 samples.

Results

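The 39 HOX genes of the HOXA, HOXB, HOXC and HOXD clusters were followed in SK-N-BE(2)-C cells, an established human neuroblastoma line, under 3 treatments. The members were all gene symbols in the deposited feature tables made of HOX, a cluster letter and a position number, 39 of 36601 genes: 11 HOXA, 10 HOXB, 9 HOXC and 9 HOXD genes. All cells came from the same line. They were treated with the solvent DMSO as control, with TSA, which commonly stands for trichostatin A, a blocker of the catalytic site of histone deacetylases (HDACs), or with E6R, a compound known here by its code only. By its title, the series is about an HDAC complex inhibitor that does not act on the enzyme activity. The sources used here give neither doses nor treatment times. Per treatment there were 2 libraries made with Seq-Well S3, in which single cells are captured with barcoded beads in small wells. Nothing in the labels says whether the 2 libraries of a treatment came from separate cultures, so p-values measure the spread between these libraries, which may be technical. The file deposited for TSA replicate 2 carries the mark reWTA, which no other library has and the labels do not explain; whether that library was prepared differently from TSA replicate 1 is not known here.

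HOX genes encode homeodomain transcription factors that give cells their position along the head-to-tail axis. They lie side by side in clusters, and low position numbers are used toward the head and high numbers toward the tail. Their chromatin is held silent by Polycomb complexes and kept active by Trithorax-type methyltransferases, and adjacent genes are often switched together. HOX proteins bind DNA together with cofactors of the TALE class, such as the PBX and MEIS proteins. In neuroblastoma, HOXC9 is known for its part in neuronal differentiation driven by retinoic acid.

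UMIs (unique molecular identifiers, 1 per captured RNA molecule) were summed per library over cells with at least 500 genes and at most 20% mitochondrial UMIs. The sums held 4206366 to 26180262 UMIs from 1861 to 3946 cells, with the DMSO libraries shallowest. Pairs of libraries shared 11 to 58 cell barcodes, at most 2.11% of the smaller library. All 12 adrenergic neuroblastoma markers had UMIs in every library, with a summed level of 4079 to 6479 CPM (UMIs scaled to a library of 1000000), while 5 blood cell markers summed to at most 3.06 CPM. Of the 12, 3 fell under TSA in edgeR, among them PHOX2A, a transcription factor gene of the sympathetic lineage. Among all genes tested for TSA against DMSO, 16.2% were called higher and 13.5% lower. The 9 mesenchymal markers summed to 779 and 1248 CPM under DMSO, 2216 and 3339 under TSA, and 1344 and 2151 under E6R. Most of this sum was VIM, with 2840 and 1760 CPM under TSA against 977 and 696 under DMSO. VIM was the only one of the 8 tested that edgeR called higher under TSA, and COL1A2 was called lower. Both TSA libraries lay above both DMSO libraries for 4 of the 8 and below them for 2. FN1, not called, had 380 and 373 CPM under TSA against 114 and 19.3 under DMSO. The 3 endothelial markers stood at 49.5 CPM in DMSO replicate 1 and 65.6 in E6R replicate 1, against 1.88 to 11.5 in the other 4 libraries, and the 3 epithelial markers at 63.5 and 63.4 CPM there against 12.4 to 29.9. Mitochondrial genes held 5.83% to 9.71% of the UMIs under DMSO and TSA and 1.51% to 1.55% under E6R. In E6R replicate 2, 1% of the cells held 22.5% of the UMIs. The part of these differences in the HOX values was not tested, beyond leaving out each library in turn. In summed libraries, fewer cells with a transcript and fewer transcripts per cell cannot be told apart.

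Most HOX UMIs came from the HOXC and HOXD clusters, and few from HOXA and HOXB. A gene was taken as detected if it reached 1 CPM in any library, and 22 of the 39 HOX genes did: all 9 HOXC genes, 8 of 9 HOXD genes, 3 of 11 HOXA genes and 2 of 10 HOXB genes. The detected genes held 98.8% of the 10997 HOX UMIs. Under DMSO, the HOXC genes together had 99.4 and 109 CPM and the HOXD genes 26.3 and 31.4 CPM. The HOXA genes had 6.37 and 4.21 CPM and the HOXB genes 3.61 and 4.02 CPM. CPM values are scaled by TMM, edgeR's correction for library composition, and are not divided by gene length, so levels are compared across libraries and not between genes. The threshold is close to the depth of the DMSO libraries. HOXB7 and HOXD4, just inside it, reached 1.19 unscaled CPM, which is 5 UMIs in DMSO replicate 1, and HOXB3, just outside, reached 0.951. The 17 genes not detected had 1 to 24 UMIs each over all 6 libraries: 8 HOXA genes, 8 HOXB genes and HOXD12.

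**Figure D1:**
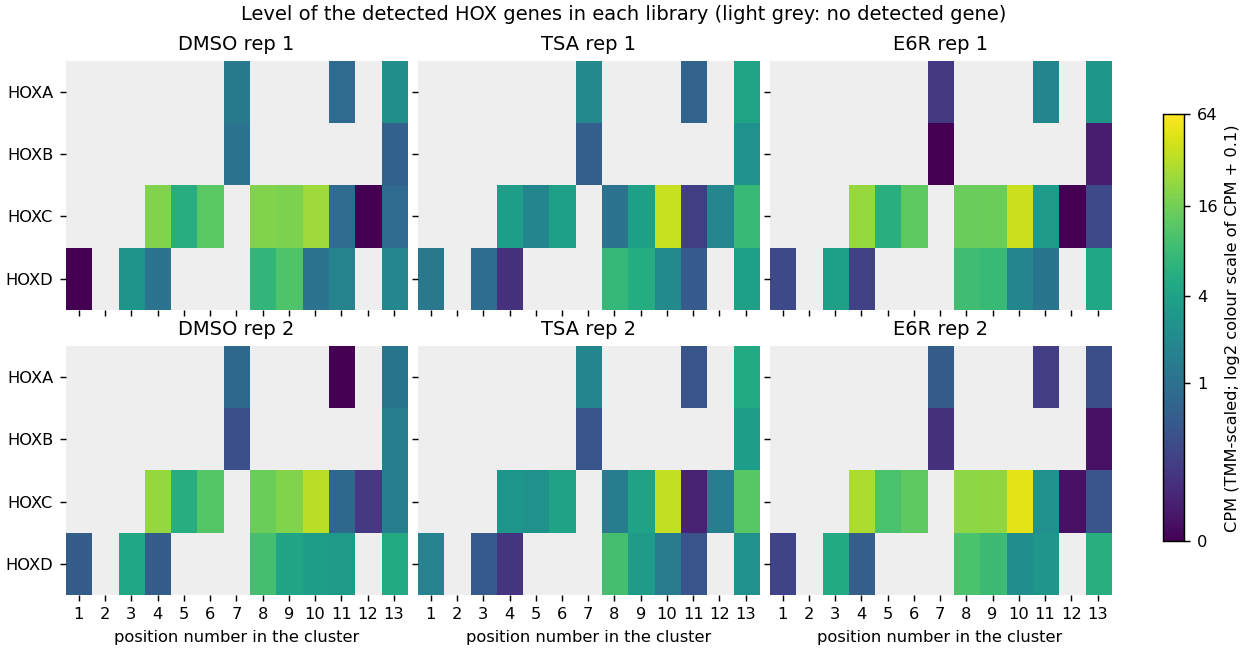
Level of the 22 detected HOX genes in the 6 libraries, with the clusters as rows and the position number as columns. Colour is CPM on a log2 scale, and light grey marks positions with no detected gene. The HOXC genes from position 4 to 10 are bright under DMSO and E6R. Under TSA the HOXC genes from 4 to 9 are darker, and those at 12 and 13 are brighter.

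Under TSA, genes at one end of the HOXC cluster fell and genes at the other end rose. HOXC4, HOXC6, HOXC8 and HOXC9 fell, HOXC12 and HOXC13 rose, and HOXC10 and HOXC11 between them did not pass the test. The 5 genes from HOXC4 to HOXC9 summed to 72.7 and 73.4 CPM under DMSO and to 14.2 and 15.0 under TSA. HOXC12 and HOXC13 summed to 0.850 and 1.72 CPM under DMSO and to 9.50 and 13.3 under TSA. As a share of all HOX UMIs, HOXC4 to HOXC9 went from 51.5% ± 2.90 (SD, n = 2) to 15.2% ± 0.279, and HOXC12 with HOXC13 from 0.892% ± 0.376 to 11.9% ± 2.60. These sums are descriptions with no test. For single genes, edgeR's quasi-likelihood test over all 16763 genes with enough UMIs, adjusted by the Benjamini-Hochberg method at 0.05, covered 20 of the 39 HOX genes. It called 8 of the 20 for TSA against DMSO, 2 higher and 6 lower. Among all genes tested 29.7% were called, 16.2% higher and 13.5% lower. Both TSA libraries lay above both DMSO libraries for 7 of the 20 HOX genes and below them for 8, against 36.7% and 34.6% of all genes. The median log2 fold change was -0.32 over the 20 HOX genes and -0.01 over all genes. With total counts only as the scale, the median over all genes was -0.32, all calls split into 1717 higher and 3361 lower in place of 2720 and 2255, and the HOX calls into 2 higher and 8 lower.

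**Figure D2:**
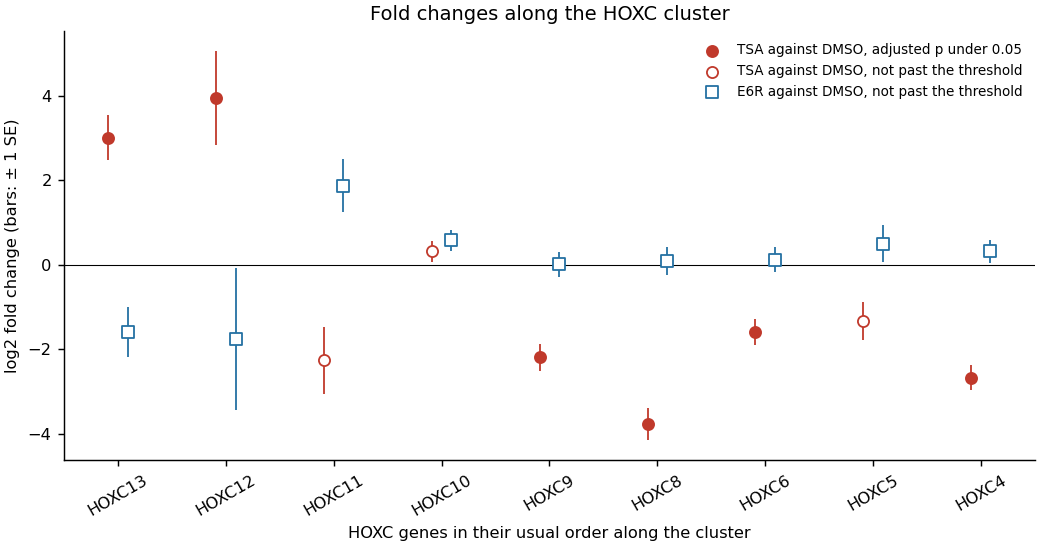
Log2 fold changes of the 9 HOXC genes, placed in their usual order along the cluster, for TSA against DMSO (circles) and E6R against DMSO (squares); bars are 1 standard error and filled symbols have an adjusted p under 0.05. For TSA, HOXC13 and HOXC12 lie above 0, and HOXC9, HOXC8, HOXC6 and HOXC4 lie below it with filled symbols. For E6R all 9 symbols are open.

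HOXC8, which patterns the thoracic and brachial region, showed the largest fall of the HOX genes tested. It had 18.7 and 14.7 CPM under DMSO, 1.06 and 1.39 under TSA, and 14.4 and 21.1 under E6R. Both TSA libraries lay far below the other 4, which overlapped each other. The log2 fold change for TSA against DMSO was -3.76 (SE 0.39, edgeR adjusted p = 0.00108). HOXC8 spans chromosome 12, 54009106 to 54012362, plus strand (GRCh38, GENCODE 29), within the span of HOXC6 on the same strand. Among cells thinned to 1000 UMIs, which left out 674 and 1450 shallower cells under DMSO and 615 and 503 under TSA, 1.68% and 1.49% held a HOXC8 UMI under DMSO and 0.270% and 0.143% under TSA. Without thinning the shares were 4.30% and 2.20% under DMSO and 0.527% and 0.486% under TSA, at median depths of 1268 and 1054 UMIs under DMSO and 1728 and 1876 under TSA. The line offers no cell type that should lack HOXC8, so the share that free RNA gives was not measured.

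HOXC4 and HOXC9 followed HOXC8. HOXC4, a gene of the cervical and upper thoracic region (chromosome 12, 54016931 to 54056030, plus strand), had 18.7 and 23.0 CPM under DMSO and 3.65 and 2.87 under TSA. This gave a log2 difference of -2.67 (SE 0.30, edgeR adjusted p = 0.00135). HOXC9 (chromosome 12, 53994895 to 54003337, plus strand) had 17.6 and 18.7 CPM under DMSO and 3.87 and 4.09 under TSA, and its fold change was -2.19 on the log2 scale (SE 0.32, edgeR adjusted p = 0.00292). For both genes the TSA libraries lay below all 4 others, with E6R at 23.4 and 28.7 CPM for HOXC4 and 14.9 and 21.9 for HOXC9. HOXC4, HOXC8 and HOXC9 kept their calls in all 20 alternative analyses.

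HOXC6 and HOXC5 lie between them. HOXC6 (chromosome 12, 53990624 to 54030823, plus strand) had 12.1 and 11.5 CPM under DMSO and 3.80 and 4.01 under TSA, for a fold change of -1.59 on the log2 scale (SE 0.31, edgeR adjusted p = 0.00823). HOXC5 (chromosome 12, 54032853 to 54035358, plus strand) had 5.52 and 5.55 CPM under DMSO and 1.82 and 2.61 under TSA. The log2 fold change of -1.32 (SE 0.45) missed the threshold at an edgeR adjusted p of 0.0608, and it passed in 10 of 19 alternatives. On the same strand, the annotated span of HOXC6 overlaps those of HOXC4, HOXC8 and HOXC9, and the span of HOXC4 contains HOXC5. How UMIs were divided among these 5 genes depends on the authors' counting and is uncertain.

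HOXC13, known for its part in hair and nail formation, rose at the other end of the cluster. It had 0.850 and 1.53 CPM under DMSO, 7.60 and 11.8 under TSA, and 0.316 and 0.451 under E6R. The TSA libraries held 100 and 136 HOXC13 UMIs, against 4 and 8 in the much shallower DMSO libraries. The log2 fold change was 3.01 (SE 0.53, edgeR adjusted p = 0.00606) for this gene at chromosome 12, 53938765 to 53946544, plus strand. HOXC12 (chromosome 12, 53954834 to 53958956, plus strand) was counted with 25 and 17 UMIs in the TSA libraries and with 0 and 1 in the DMSO libraries. Relative to depth, TSA exceeded DMSO 13.7 times (exact 95% limits 2.33 and 554, for counting error). The fitted log2 fold change, which rests on the single DMSO UMI, was 3.95 (SE 1.11, edgeR adjusted p = 0.0317).

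HOXC10 and HOXC11, between the stretches that fell and rose, did not pass. HOXC10, active in the lumbar region, was the only HOX gene with a mean above 20 CPM. It had 25.1 and 33.1 CPM under DMSO, 37.1 and 35.3 under TSA, and 38 and 48.8 under E6R. All 4 treated libraries lay above both DMSO libraries, by less than the DMSO libraries differed for the nearest pair. For TSA the log2 fold change was 0.32 (SE 0.24, edgeR adjusted p = 0.344) and was 0.01 when only total counts set the scale. HOXC11 had 4 and 4 UMIs under DMSO and 3 and 1 in the deeper TSA libraries. The log2 fold change of -2.26 (SE 0.79) had an edgeR adjusted p of 0.0633, and of 0.0428 with total counts only.

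Several calls depended on single libraries. Of the 8 calls for TSA against DMSO, 5 remained without DMSO replicate 2, 4 without TSA replicate 1 and 3 without TSA replicate 2. HOXC12 lost its call without any 1 of the 4 DMSO and TSA libraries (edgeR adjusted p from 0.0738 to 0.166), HOXC13 without TSA replicate 2 (0.0682), and HOXC6 without TSA replicate 1 (0.0769) or replicate 2 (0.0770).

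**Figure D3:**
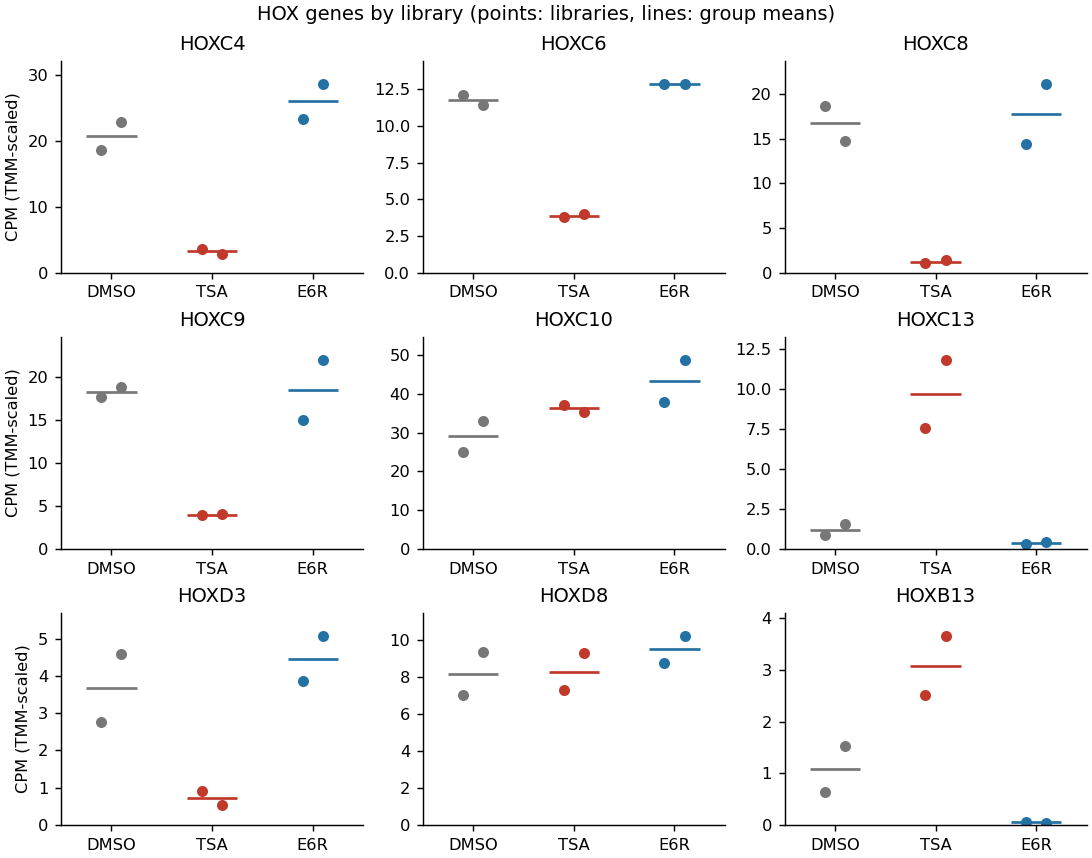
CPM of 9 HOX genes in each library; points are libraries and lines are group means, with y axes that start at 0. HOXC4, HOXC6, HOXC8, HOXC9 and HOXD3 are lowest in the 2 TSA libraries, HOXC13 and HOXB13 are highest there, and the groups of HOXD8 overlap for DMSO with TSA.

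In the HOXD cluster HOXD3 and HOXD11 fell under TSA, and the other HOXD genes tested did not pass. HOXD3, a gene of the hindbrain and neck region (chromosome 2, 176136612 to 176173102, plus strand), had 2.76 and 4.59 CPM under DMSO, 0.912 and 0.522 under TSA, and 3.85 and 5.08 under E6R. Both TSA libraries lay below all others, and the log2 fold change was -2.34 (SE 0.56, edgeR adjusted p = 0.0174). HOXD11, a gene of limb and kidney development (chromosome 2, 176104216 to 176109754, plus strand), had 1.70 and 3.25 CPM under DMSO and 0.532 and 0.435 under TSA. Here too the log2 fold change was -2.34 (SE 0.72, edgeR adjusted p = 0.0426), on 25 UMIs in DMSO and 12 in TSA. It lost the call in 9 of 19 alternatives, among them each that left out a DMSO or TSA library. HOXD3 lost its call without DMSO replicate 2, TSA replicate 1 or TSA replicate 2. With 1 library left out, log2 fold changes were -2.68 to -1.87 for HOXD11 and -2.77 to -1.96 for HOXD3.

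HOXD8 overlapped between DMSO and TSA, with 7.01 and 9.37 CPM under DMSO, 7.29 and 9.32 under TSA and 8.78 and 10.2 under E6R. HOXD13, a gene of the digits, had 1.91 and 5.16 CPM under DMSO and 3.87 and 2.52 under TSA, so its groups overlapped. HOXD9 had 10.8 and 4.21 CPM in the 2 DMSO libraries, a wider gap than between the group means of DMSO and TSA. HOXD10 overlapped as well, with 1.06 and 3.63 CPM under DMSO and 2.05 and 1.31 under TSA. HOXD1, at the head end of the cluster, had 0 and 3 UMIs in DMSO, 16 and 19 in TSA and 5 and 7 in E6R libraries. Its TSA against DMSO edgeR adjusted p was 0.127. HOXD4 was detected on 5 and 3 UMIs under DMSO, 2 and 2 under TSA and 4 and 16 under E6R, too few to test.

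The upstream sequences of 3 HOXD genes are shown because 2 of them fell under TSA and HOXD13 in the same cluster did not pass. They are the 250 bases before the RefSeq start (GRCh38.p14, plus strand), and the windows contain no GENCODE 29 exon. By the GENCODE 29 spans, the HOXD3 and HOXD11 windows lie inside their own genes, ahead of an inner start. The HOXD3 window also lies inside the gene AC009336.2 on the same strand, and the HOXD13 window lies in no gene. RefSeq's promoter table held 20 of the 39 HOX genes. Capitals mark matches on either strand to any of 4 motifs. These were CCAAT, the box named for its letters, and TATAAA, the TATA box. Nuclear receptors such as those for retinoic acid bind sites built from AGGTCA. The fourth motif, TGATTNAT, is a site type of HOX proteins paired with PBX. HOXD3 lies at chr2:176157057-176157306, HOXD11 at chr2:176107030-176107279 and HOXD13 at chr2:176092471-176092720.
HOXD3: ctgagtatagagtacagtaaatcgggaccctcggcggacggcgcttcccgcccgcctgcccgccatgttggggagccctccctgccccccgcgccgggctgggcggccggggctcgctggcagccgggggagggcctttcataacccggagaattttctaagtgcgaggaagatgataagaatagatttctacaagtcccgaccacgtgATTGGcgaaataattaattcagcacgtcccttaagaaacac
HOXD11: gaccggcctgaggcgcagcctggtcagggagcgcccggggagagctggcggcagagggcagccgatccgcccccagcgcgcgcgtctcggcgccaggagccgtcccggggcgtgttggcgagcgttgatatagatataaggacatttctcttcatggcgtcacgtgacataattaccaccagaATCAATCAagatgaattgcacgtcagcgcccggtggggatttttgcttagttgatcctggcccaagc
HOXD13: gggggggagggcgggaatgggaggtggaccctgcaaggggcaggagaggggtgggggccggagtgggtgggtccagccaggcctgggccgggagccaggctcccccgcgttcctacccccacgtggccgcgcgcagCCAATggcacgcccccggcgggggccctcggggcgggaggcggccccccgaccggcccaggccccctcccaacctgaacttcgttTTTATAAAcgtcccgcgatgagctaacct
HOXD3 held 1 CCAAT, HOXD11 held 1 TGATTNAT, and HOXD13 held 1 CCAAT and 2 TATAAA matches that overlap on opposite strands. CG dinucleotides numbered 21, 23 and 21 in the same order. The median was 19.5 over the distinct HOX windows and 11 over all 34943 distinct windows of this length. Of all windows, 32.0% held CCAAT, 10.75% TATAAA, 12.1% AGGTCA and 2.49% TGATTNAT. Among the 26 distinct HOX windows, which belong to the 20 genes, 17 held CCAAT, 5 TATAAA, 2 TGATTNAT and 0 AGGTCA. These are matches of letters and not binding sites.

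Position 13 had its highest summed level under TSA, with unequal changes among its 4 genes. HOXA13, HOXB13, HOXC13 and HOXD13 summed to 5.74 and 9.37 CPM under DMSO, 18.2 and 23.1 under TSA, and 7.96 and 6.51 under E6R. HOXC13 was the only one of the 4 to pass for TSA against DMSO. HOXB13, a gene of the tail end of the body and of prostate (chromosome 17, 48724763 to 48729178, minus strand), had 0.637 and 1.53 CPM under DMSO, 2.51 and 3.66 under TSA and 0.0632 and 0.0376 under E6R. Its 3 groups did not overlap, and for TSA against DMSO its log2 fold change was 1.48 (SE 0.64, edgeR adjusted p = 0.117). HOXA13, which acts in limb and urogenital development, had 2.34 and 1.15 CPM under DMSO and 4.25 and 5.05 under TSA (edgeR adjusted p = 0.263). HOXA13 differed between the E6R libraries, with 2.97 and 0.376 CPM, and so did HOXA11, with 1.83 and 0.226 CPM. E6R replicate 1, the higher library for both, was also the one with 65.6 CPM of endothelial markers, against 1.88 in replicate 2; their part in this difference was not tested.

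**Figure D4:**
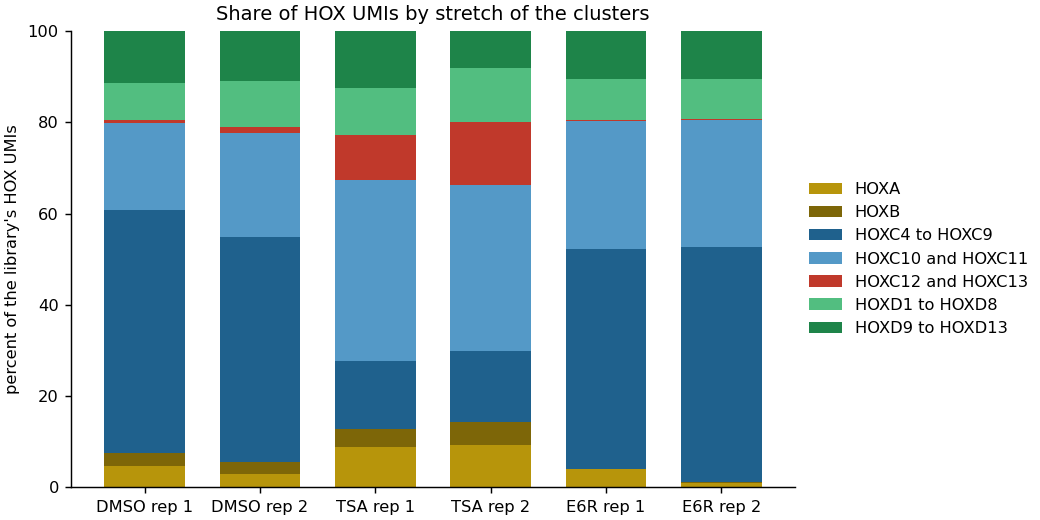
Share of each library's HOX UMIs by stretch of the clusters, as stacked bars that sum to 100 percent. HOXC4 to HOXC9 take 53.5% and 49.4% under DMSO, 15.0% and 15.4% under TSA and 48.3% and 51.5% under E6R, while HOXC12 with HOXC13 take 10.05% and 13.7% under TSA and at most 1.16% elsewhere.

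E6R against DMSO gave no called HOX gene, 0 of 20 tested in edgeR. Among all genes 0% were called in this comparison, the same share as among the HOX genes. At an unadjusted p under 0.05 there were 4 HOX genes: HOXC10 and HOXC11 higher, HOXC13 and HOXB13 lower. Over all genes, 8.04% were higher and 9.34% lower at that level. DESeq2 called 0 HOX genes and 415 of all genes, and edgeR with no low-count filter called 1 HOX gene, HOXB13, and 1095 of all genes. Both E6R libraries lay above both DMSO libraries for 5 HOX genes and below them for 3, against 24.6% and 22.7% of all genes tested.

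HOXC8, HOXC9 and HOXC6 differed least between E6R and DMSO among the HOXC genes. Their log2 fold changes were 0.09 (SE 0.33), 0.02 (SE 0.30) and 0.13 (SE 0.29), with edgeR adjusted p from 0.853 to 0.981, and all were below 0 when only total counts set the scale. HOXC4 had a log2 fold change of 0.32 (SE 0.27), HOXC5 of 0.50 (SE 0.43) and HOXC10 of 0.58 (SE 0.24). HOXC11, a gene of the lumbar and sacral region, had 0.850 and 0.765 CPM under DMSO and 3.41 and 2.56 under E6R. The log2 fold change was 1.87 (SE 0.62, edgeR adjusted p = 0.223). HOXC13 had a log2 fold change of -1.59 (SE 0.59, edgeR adjusted p = 0.238). HOXC12 had 1 UMI in each of the 2 treatments, and HOXD3, HOXD11 and HOXA7 had log2 fold changes of 0.28 (SE 0.50), -0.33 (SE 0.64) and -1.34 (SE 0.75).

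HOXB genes were lowest under E6R. They held 2 and 11 UMIs in all in the deep E6R libraries, 17 and 21 under DMSO and 50 and 58 under TSA. That is 0.126 and 0.414 CPM under E6R against 3.61 and 4.02 under DMSO. HOXB13, the single HOXB gene tested, had the smallest edgeR adjusted p of the HOX genes in this comparison, 0.205, at a log2 fold change of -4.26 (SE 0.87). Among the alternatives it passed with no low-count filter (edgeR adjusted p = 0.00553). The other HOXB genes had at most 8 UMIs in any library. In barcodes with fewer than 300 genes, which were not kept as cells, HOXB genes stood at 16.3 and 12.1 unscaled CPM under DMSO and 5.35 and 3.90 under E6R, above their level in cells. The 6 ParaHox genes, relatives of the HOX genes that were all too low to test, summed to 0 and 1.34 CPM in DMSO cells and 0 and 0.0752 in E6R cells. The part of such low background levels in the HOXB values was not tested.

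E6R against TSA compared the treatments directly, and 12 of 20 HOX genes differed in edgeR, 8 higher and 4 lower under E6R. Among all genes, 38.2% were called, 18.7% higher and 19.5% lower. Both E6R libraries lay above both TSA libraries for 11 HOX genes and below them for 6, against 33.7% and 38.9% of all genes. The comparison shares the TSA libraries with that of TSA against DMSO, and all 8 genes called there were called here. The 8 higher genes were HOXC4, HOXC5, HOXC6, HOXC8, HOXC9, HOXC11, HOXD3 and HOXD11. Log2 fold changes were 2.99 (SE 0.30) for HOXC4, 3.85 (SE 0.38) for HOXC8, 2.21 (SE 0.31) for HOXC9, 1.72 (SE 0.30) for HOXC6 and 1.82 (SE 0.44) for HOXC5. HOXC11, with 122 UMIs under E6R and 4 under TSA, had 4.13 (SE 0.68, edgeR adjusted p = 0.00305). HOXD3 had 2.62 (SE 0.54) and HOXD11 had 2.01 (SE 0.68, edgeR adjusted p = 0.0492).

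The 4 genes lower under E6R than under TSA were HOXC12, HOXC13, HOXB13 and HOXA7. HOXC13 had a log2 fold change of -4.60 (SE 0.54, edgeR adjusted p = 0.000899). HOXB13 had 75 UMIs in the TSA libraries and 2 in the E6R libraries, which relative to depth is 0.0175 times the TSA level (95% counting limits 0.00209 and 0.0656). Its log2 fold change was -5.75 (SE 0.80, edgeR adjusted p = 0.00158). HOXC12 had 42 and 1 UMIs in these libraries, 0.0157 times the TSA level (limits 0.000387 and 0.0922), with a log2 fold change of -5.70 (SE 1.0002, edgeR adjusted p = 0.00382). HOXA7, a thoracic gene at chromosome 7, 27153716 to 27157936, minus strand, had 1.98 and 1.83 CPM under TSA and 0.190 and 0.564 under E6R (log2 fold change -2.24, SE 0.67, edgeR adjusted p = 0.0318). HOXA7 lost the call without TSA replicate 1, TSA replicate 2 or E6R replicate 1, and HOXC5 without TSA replicate 1 or replicate 2. HOXD11 lost it without TSA replicate 1, TSA replicate 2 or E6R replicate 2, and HOXD3 without TSA replicate 2. Each of these fits has 1 library in a group. With 1 library left out, log2 fold changes were -3.23 to -1.66 for HOXA7 and 1.40 to 2.23 for HOXC5. They were 1.23 to 2.57 for HOXD11 and 2.28 to 3.08 for HOXD3. Fits on all 6 libraries cost calls too. In all, HOXD11 missed the threshold in 9 of 19 alternatives. Among them were DESeq2 (adjusted p = 0.0631) and library sums thinned to the smallest (edgeR adjusted p = 0.340). HOXA7 missed it in DESeq2 (adjusted p = 0.0711) and without the 5% of cells with most UMIs (edgeR adjusted p = 0.108). HOXC6 missed it in cells thinned to 1000 UMIs (edgeR adjusted p = 0.129). HOXC4, HOXC8, HOXC9, HOXC11, HOXC12, HOXC13 and HOXB13 passed in every alternative that tested them.

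Barcodes with fewer than 300 genes were left out of the sums, and HOX genes were counted in them separately. HOXC8 had 23.8 and 25.7 unscaled CPM there under DMSO, 3.0 and 1.52 under TSA and 21.4 and 31.2 under E6R. HOXC13 had 1.25 and 1.51 under DMSO, 5.50 and 6.58 under TSA and 0 and 1.11 under E6R. For both genes the TSA libraries stood apart from the other 4 on the same side as in the cells. Not every HOX gene did so. HOXC12 had 0 and 2.02 under DMSO and 3.50 and 1.52 under TSA, and HOXB13 had 1.88 and 1.51 against 5.0 and 1.52, so both overlapped. HOXA7, higher under TSA in the cells, had 1.88 and 4.03 under DMSO and 1.0 and 1.52 under TSA. These genes had at most 10 UMIs per library there.

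HOTAIR and HOXD-AS2, noncoding RNAs of the clusters, fell under TSA. Of 20 noncoding RNAs listed, 18 were in the files and 7 were tested. For TSA, 2 of the 7 fell and 0 rose, a share close to the 29.7% called among all genes, and 5 did not pass. The 7 had a median log2 fold change of -1.31, against -0.01 over all genes. HOTAIR, a long RNA read from the strand opposite HOXC11 and between it and HOXC12 (chromosome 12, 53962308 to 53974956, minus strand), had 13.2 and 7.08 CPM under DMSO, 0.304 and 0.261 under TSA and 24.0 and 16.1 under E6R. Its log2 fold change for TSA was -5.11 (SE 0.53, edgeR adjusted p = 0.00114). HOXD-AS2, on the strand opposite HOXD3, HOXD8 and HOXD9, had 12.1 and 17.0 CPM under DMSO and 1.82 and 1.22 under TSA (log2 fold change -3.25, SE 0.38, edgeR adjusted p = 0.00151). HOXC-AS3, opposite HOXC10, had a log2 fold change of -2.004 (SE 0.69) with an edgeR adjusted p of 0.0622. No source used here gives the strand rule of the counting, so UMIs of overlapping sense and antisense genes may not be fully separated. For E6R against DMSO 0 of the 7 passed, and for E6R against TSA 3 were higher and 1 lower. Among all genes, 18.7% were called higher and 19.5% lower for E6R against TSA.

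**Figure D5:**
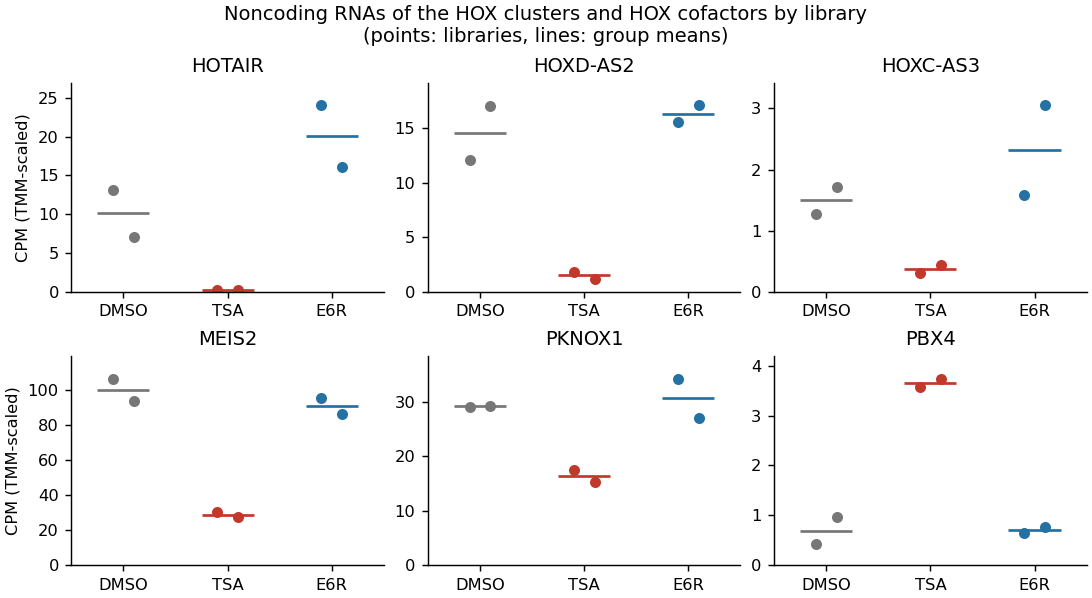
CPM in each library of 3 noncoding RNAs of the HOX clusters (upper row) and 3 HOX cofactor genes (lower row); points are libraries and lines are group means, with y axes that start at 0. All but PBX4 are lowest in the 2 TSA libraries, and PBX4 is highest there.

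Of the 9 TALE cofactor genes, all tested, 1 rose and 2 fell under TSA, against 16.2% higher and 13.5% lower among all genes. Their median log2 fold change was 0.92. MEIS2, a cofactor gene of many HOX proteins, had 106 and 93.3 CPM under DMSO, 30.2 and 27.2 under TSA and 95.6 and 86.4 under E6R, a log2 fold change for TSA of -1.80 (SE 0.19, edgeR adjusted p = 0.00123). PKNOX1 fell from 29.1 and 29.3 CPM to 17.4 and 15.1 (edgeR adjusted p = 0.0325). PBX4 rose from 0.425 and 0.956 CPM to 3.57 and 3.74 (edgeR adjusted p = 0.0232). For E6R against DMSO 0 of the 9 passed.

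Among 24 genes for writers, erasers and readers of HOX chromatin, 3 rose and 2 fell under TSA, a smaller share than the 29.7% called among all genes. Their median log2 fold change was 0.14. CTCF, whose protein bounds chromatin domains inside the clusters, fell from 203 ± 2.54 (SD, n = 2) to 91.0 ± 8.65 CPM (edgeR adjusted p = 0.00429). RBBP5, a subunit of Trithorax-type methyltransferases, rose from 77.6 ± 27.5 to 201 ± 12.9 CPM (edgeR adjusted p = 0.00836). Of 12 genes bordering the clusters that could be tested, 4 rose and 1 fell under TSA, against 16.2% higher and 13.5% lower among all genes. CALCOCO1, beyond the HOXC13 end of the HOXC cluster, had 5.04 ± 0.0894 CPM under DMSO and 47.2 ± 6.55 under TSA (edgeR adjusted p = 0.000732). HNRNPA1, beyond the HOXC4 end, fell from 234 ± 49.7 to 101 ± 26.1 CPM (edgeR adjusted p = 0.0210). HIBADH, beyond the HOXA13 end of the HOXA cluster, rose from 15.2 ± 3.41 to 40.0 ± 3.34 CPM (edgeR adjusted p = 0.0224). Of 4 tested inducers of HOX genes, 1 rose and 1 fell, too few to set against the share among all genes: GDF11, a growth factor of trunk patterning (edgeR adjusted p = 0.0406), and RXRA, a retinoid receptor (edgeR adjusted p = 0.00835). For E6R against DMSO none of these 3 lists had a called gene.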

How the data were processed

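The authors deposited whole-number UMI counts per gene and barcode, not normalized. STARsolo 2.7.9a and GRCh38 are named in the submitters' processing notes; no source used here gives the annotation or how the deposited barcodes were selected. The HOX genes, gene lists and tests were chosen with earlier results of these data known. Cells were filtered and summed as the report describes, with no doublet caller. The 6 sums entered 1 edgeR fit (4.0.16 in R 4.3.3, with TMM, filterByExpr and group as the only term). The fit was checked on simulated data that gave all genes the same spread. No gene with a mean as low as that of HOXC13 or HOXD3 was changed there, so the check does not cover calls at such levels. Standard errors came from the F statistic. Counting intervals are exact 95% conditional binomial intervals and cover counting error only. Fold changes are given for HOX genes with adjusted p under 0.05 in any comparison or a mean of at least 20 CPM, with others as context. Of each further list, at most the 3 genes with the smallest adjusted p for TSA are named. Alternatives were DESeq2 1.42.0, other scalings, filters and depths, and each library left out. All 39 HOX genes had a GENCODE 29 position. Some results for genes this rule selects are not reported here.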

Additional observations from a re-analysis of the deposited data

How the results depend on the processing

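The calls for HOX genes kept their direction in every alternative, and the count of detected genes lay between 19 and 25. For TSA against DMSO, 8 HOX genes were called. Leaving out a DMSO or TSA library gave fewer, with fewer calls over all genes too, and leaving out an E6R library gave 9. Cells thinned to 1000 UMIs gave 3, where only 8 HOX genes had enough UMIs to be tested. For E6R against TSA, 12 were called; leaving out 1 library gave 8 to 13, and thinned cells gave 3 of 8 tested. For E6R against DMSO, 0 were called, 0 without any 1 library, and 1 (HOXB13) with no low-count filter. With total counts only, the median log2 fold change of all genes for TSA moved from -0.01 to -0.32, and all genes called split into 1717 higher and 3361 lower, against 2720 and 2255.

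Log2 fold changes near 0 for E6R against DMSO changed sign, none of them called. HOXC9 had -0.11 with total counts only, -0.021 in a fit of the 4 libraries compared, -0.16 with 1000 or more genes, -0.0082 with at most 10% mitochondrial UMIs, -0.048 with library sums thinned, and -0.25 to 0.38 with 1 library left out. HOXC8 had -0.042 with total counts only and -0.17 to 0.45 with 1 library left out, and HOXC6 had -0.0069 with total counts only and -0.26 in thinned cells. HOXD11 had 0.037 in all barcodes and -1.08 to 0.27 with 1 library left out. HOXC12 had 1.70 with 1000 or more genes and -3.16 to 1.89 with 1 library left out. The cause was not tested.

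With the replicate number as a block, 9, 0 and 14 HOX genes were called for TSA against DMSO, E6R against DMSO and E6R against TSA. Over all genes, the calls for TSA against DMSO went from 4975 to 6047 with the block. The gene added for TSA against DMSO was HOXC5 (log2 fold change -1.34, edgeR adjusted p = 0.0342). The labels do not say that equal numbers share a culture or day; deviations of same-numbered libraries correlated at 0.24, 0.56 and 0.17 over 7515 genes.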
